A study of Mus musculus with 55 samples.

Results

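The YAP/TAZ pathway was represented by 10 genes, found among the 24478 gene symbols of the deposited expression table by their names: the coactivators Yap1 and Wwtr1 (which encodes TAZ), the DNA-binding partner Tead1, the kinase Lats2, the scaffold Ajuba, and the target genes Ctgf, Cyr61, Ankrd1, Amotl2 and Axl. All 10 were present. Where a symbol had several transcript rows, the one highest on average was used. YAP and TAZ lack a DNA-binding domain of their own and act on genes through TEAD factors. The Hippo kinases MST1/2 act on the kinases LATS1/2, which phosphorylate YAP and TAZ and so keep them in the cytoplasm. Cell contact, tension and polarity act on this cascade. In liver the pathway is known for its part in organ size, in biliary cell identity and in the activation of stellate cells. Transcript levels of YAP and TAZ do not report their phosphorylation, which was not measured here.

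RNA from 10 sorted liver populations of C57B/L6 mice was sequenced, in 27 libraries of normal animals and 28 of animals after partial hepatectomy (PH, surgical removal of part of the liver). Duct sorts were biliary epithelial (BEC), clonal biliary epithelial (cBEC) and non-progenitor duct cells (NPD). The other sorts were hepatocytes (HC), cells labelled endothelial (EC), sinusoidal endothelium (LSEC), stellate cells (HSC), Thy1 cells, Kupffer cells (KC, the resident macrophages) and blood cells. Normal groups had 4 libraries (BEC, HC, cBEC), 3 (LSEC) or 2 (all others). PH groups had 5 libraries (LSEC), 4 (HC), 3 (HSC, KC, EC) or 2 (all others). The labels gave no age, no sham operation, no time after surgery and no statement that replicates came from separate mice, so p-values measure only the spread between these samples. Levels are FPKM, read fragments scaled to transcript length and library total, so that genes can be compared with each other. The read depth behind them is unknown.

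Several libraries stood apart or had doubtful labels. The first library titled PH cBEC carried a treatment tag of normal and was kept as titled, and the third PH KC library carried no cell type tag. Defining markers were high in the sorts named for them, but the NPD sort held more mesothelial RNA than its label names. Its summed level of 5 mesothelial markers was 4806 to 5144 FPKM in normal liver, against 11 to 32.1 in BEC, and its Epcam level was 41.1 against 377 FPKM in BEC. The normal Thy1 sort also held this list, at 1561 to 2336 FPKM. Blood after PH carried Kupffer and endothelial markers. The normal KC sort also carried endothelial markers, and PH KC carried less of them, with values given beside the results. The hepatocyte marker Alb was at least 39302 FPKM in HC and was listed at 0 in 46 of the 47 other libraries, so hepatocyte transcripts cannot be read outside HC. The 10 pathway genes were all low in HC, at most 28.5 FPKM (Cyr61), and 1 of their 470 values outside HC was 0 (Ankrd1 in a normal LSEC library). Their HC values were listed with fewer decimals than those of the other sorts. Whether HC libraries were processed in another way is not known. Processing and cell type therefore cannot be told apart where HC is set against another sort.

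The genes lay on 6 chromosomes, given here with the coordinates of the deposited transcripts, which the submitters' processing notes place on mm9. Yap1 (NM_009534) was at chr9:7932001-8004596 and Amotl2 (NM_019764) at chr9:102620134-102635747. Wwtr1 (NM_133784) was at chr3:57259566-57379798 and Cyr61 (NM_010516) at chr3:145309935-145312949. Tead1 (NM_001166585) was at chr7:119902898-120050319 and Axl (NM_001190975) at chr7:26541519-26573752. Lats2 (NM_015771) was at chr14:58308499-58364960 and Ajuba (NM_010590) at chr14:55186306-55196498. Ctgf (NM_010217) was at chr10:24315248-24318488 and Ankrd1 (NM_013468) at chr19:36186455-36194334. Each span covers the gene's exons and introns. Yap1 and Wwtr1 each had 2 rows, and Tead1 and Axl 3, whose values moved together (r = 1.0). The second row of Lats2 averaged 22.9 FPKM against 36.5 for the row used, and moved with it at r = 0.97.

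The YAP coactivator was expressed evenly in most sorts. In normal liver Yap1 averaged 43.6 ± 5.18 FPKM in EC (SD, n = 2), 43.1 ± 3.74 in NPD (SD, n = 2), 42.6 ± 5.92 in BEC (SD, n = 4), 38.6 ± 4.53 in cBEC (SD, n = 4), 37.7 ± 5.95 in Thy1 (SD, n = 2) and 36.8 ± 3.79 in LSEC (SD, n = 3). Libraries of neighbours in this order overlapped. The HSC libraries were at 14 and 38.1 FPKM, the 4 HC libraries at 13.5, 18.9, 18.5 and 12.9, the KC libraries at 10.7 and 14.1, and the blood libraries at 0.347 and 0.875. Blood therefore stood below every other sort, and HC and KC below the 6 sorts named first.

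TAZ was distributed differently. Wwtr1 had its highest means in endothelium, at 70.6 ± 11.5 FPKM in EC (SD, n = 2) and 69 ± 13 in LSEC (SD, n = 3), and lower in BEC (37.7 ± 5.08, SD, n = 4). The Thy1 libraries, at 39.6 and 82.8 FPKM, spanned the whole endothelial range. It was 5.6 and 20.1 FPKM in HSC, and 1.55, 2.72, 3.66 and 1.68 in HC. The LSEC level exceeded the BEC level by 0.85 on the log2 scale (SE 0.31, limma, Benjamini-Hochberg adjusted p 0.0262), and this call was lost without BEC library 2 or without LSEC library 1 or 2 (adjusted p 0.0691 to 0.094). No library of LSEC was as low as a library of BEC. Both coactivators were thus detected in every library, in proportions that differed by sort.

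The ratio of Yap1 to Wwtr1, both in FPKM, was 3.06 to 8.73 over the 8 HC libraries (median 6.08) and 1.69 to 2.53 over the 5 HSC libraries. It was 1.02 to 1.24 in BEC and 0.923 to 1.21 in cBEC, and lay below 1 in every library of EC (0.484 to 0.757), LSEC (0.439 to 0.845), Thy1 (0.507 to 0.881) and KC (0.385 to 0.537). Hepatocyte and stellate libraries were the only ones above 1.5, and HC did not overlap HSC. These ratios were described and not tested.

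**Figure D1:**
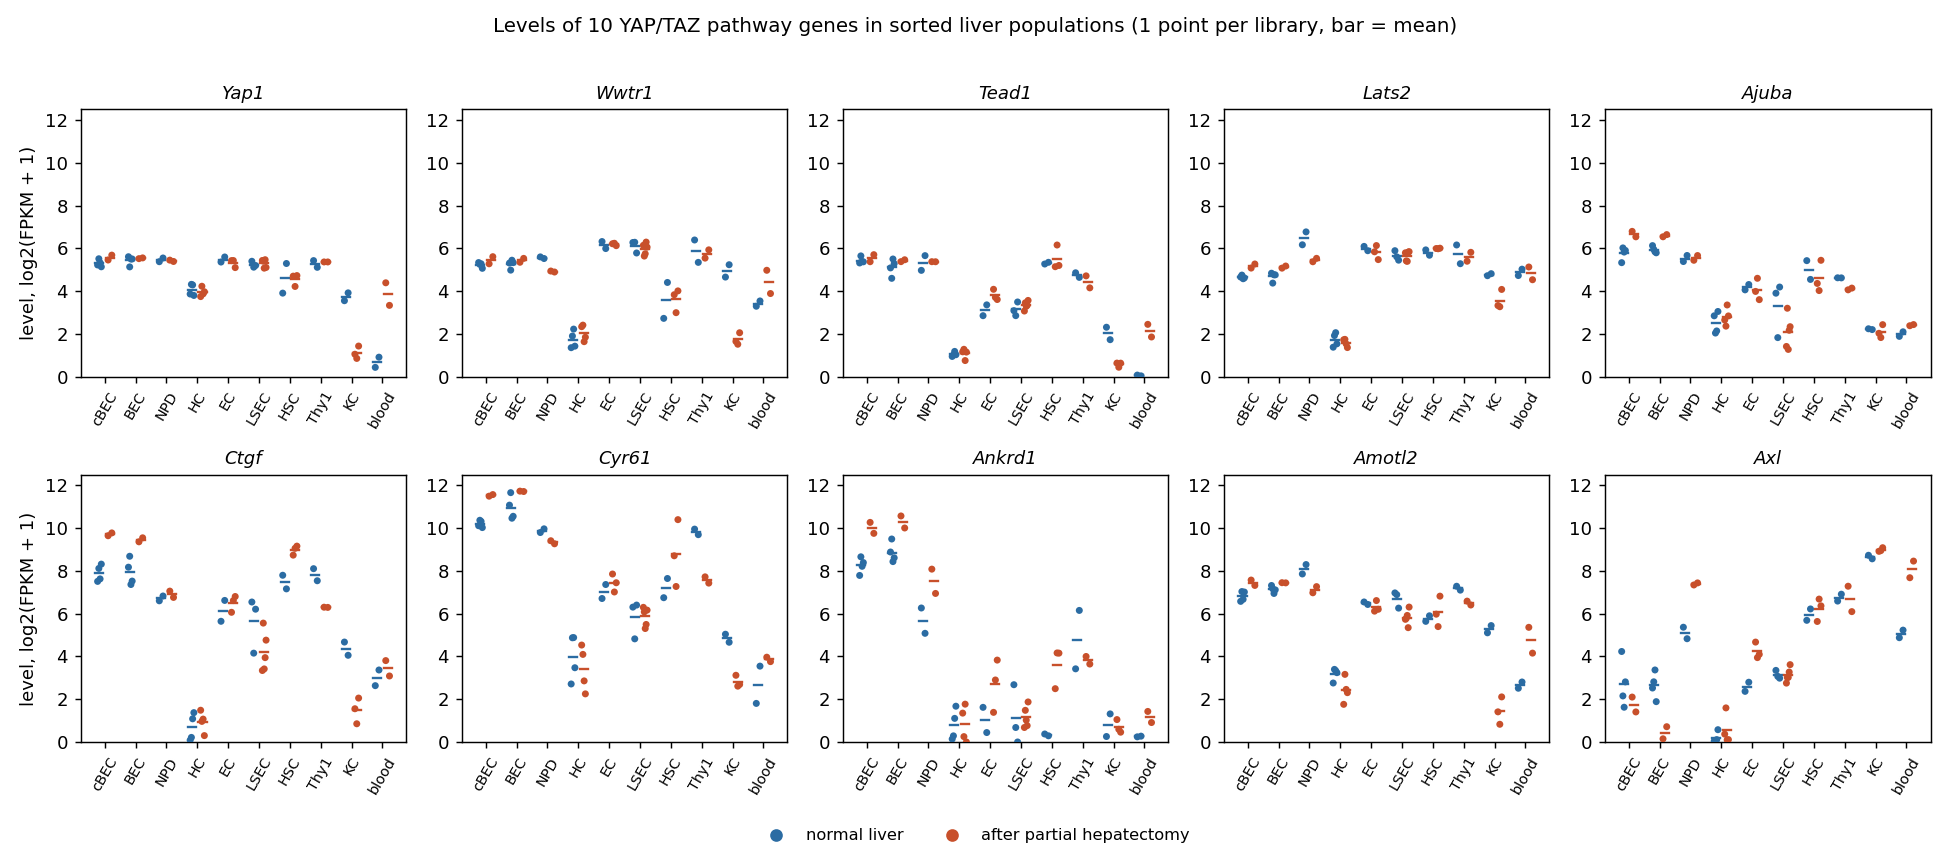
Level of each of the 10 genes, as log2(FPKM + 1) on the vertical axis, in the 10 sorted populations on the horizontal axis. Each point is a library, blue for normal liver and red after PH, and bars are means. Ctgf, Cyr61 and Ankrd1 have their highest means in cBEC and BEC, with Thy1 and HSC overlapping them for Ctgf in normal liver, whereas Axl is highest in KC.

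**Figure D2:**
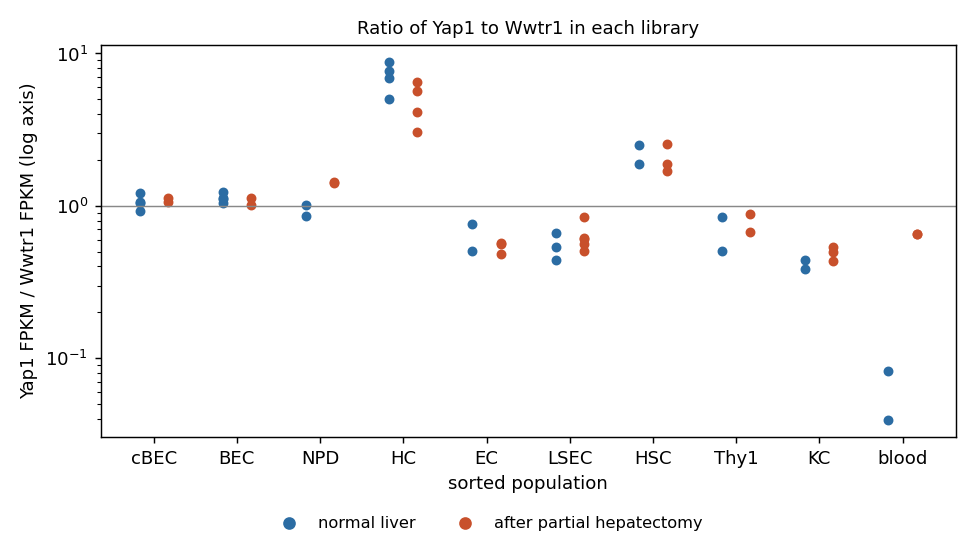
Ratio of Yap1 to Wwtr1 (FPKM over FPKM, log axis) in each library by population, blue for normal liver and red after PH, with a grey line at 1. HC lies at 3.06 to 8.73 and HSC at 1.69 to 2.53, and EC, LSEC, Thy1 and KC lie below 1.

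TEAD1 brings YAP and TAZ to DNA. In normal liver Tead1 averaged 42.2 ± 4.63 FPKM in cBEC (SD, n = 4), 39.9 ± 13.5 in NPD (SD, n = 2), 38.5 ± 1.54 in HSC (SD, n = 2) and 34.6 ± 8.9 in BEC (SD, n = 4), and these 4 overlapped. It was 7.47, 6.21 and 10.2 FPKM in LSEC, 3.95 and 2.31 in KC, and 0.92, 1.02, 1.26 and 1.03 in HC. In blood it was 0.0488 and 0.0225 FPKM, near nothing. The HSC level exceeded that of LSEC by 2.16 on the log2 scale (SE 0.26, limma adjusted p 1.05e-06), and every HSC library lay above every LSEC library.

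Lats2, a kinase that phosphorylates YAP and TAZ and is itself a known target of them, had another order. Its normal level was 70.7 and 108 FPKM in NPD, 67.1 and 58.2 in EC and 59.8 and 50.1 in HSC, and 19.7 to 27.5 in BEC. In HC it was 1.59, 2.78, 3.15 and 1.89 FPKM. All 47 libraries of the other populations, PH included, lay above the highest HC library for Lats2, the only one of the 10 genes for which this held. Ajuba, a LIM-domain scaffold that restrains LATS kinases at cell junctions, had its highest means in the duct sorts, at 60.1 ± 6.48 FPKM in BEC (SD, n = 4) and 54.3 ± 10.6 in cBEC (SD, n = 4). The HSC libraries, at 41.9 and 22.3 FPKM, overlapped those of cBEC and NPD, and Thy1 had 23.6 and 23.5. Its libraries in LSEC (13.9, 2.54 and 17.2 FPKM) and HC (6.17, 3.1, 3.39 and 7.25) overlapped, and their difference of 0.79 was not called (SE 0.38, limma adjusted p 0.0757).

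Among the targets, Ctgf and Cyr61 encode secreted matricellular proteins (now CCN2 and CCN1), and Ankrd1 encodes a nuclear ankyrin-repeat protein. In normal liver Cyr61 and Ankrd1 were highest in BEC and cBEC. Ctgf also had its highest means there, but Thy1 and HSC overlapped them. Promoter sequence is shown because TEAD factors recognise the letters GGAATG. The 250 bases before the annotated start were searched for GGAATG or its reverse complement CATTCC, using RefSeq promoters on GRCm38.p6. Of the 10 genes, 8 were matched in that table and Ctgf and Tead1 were not. A match was present in 7 of those 8, with none for Lats2, against 14.4% of 27025 genes and 12.6% of all 32851 windows. Matches are capitalised in the lines that follow, which run 5′ to 3′ on the gene's strand. The lines are Cyr61 (chr3:145649986-145650235, minus strand) and Ankrd1 (chr19:36119845-36120094, minus strand), whose duct levels stood out, Amotl2 (chr9:102717554-102717803, plus strand) and Axl (chr7:25788734-25788983, minus strand), each called after PH in 3 sorts. The Cyr61 match begins 103 bases before the start, those of Ankrd1 210 and 123, that of Amotl2 65 and that of Axl 233. A match describes letters only and no binding was measured.
Cyr61: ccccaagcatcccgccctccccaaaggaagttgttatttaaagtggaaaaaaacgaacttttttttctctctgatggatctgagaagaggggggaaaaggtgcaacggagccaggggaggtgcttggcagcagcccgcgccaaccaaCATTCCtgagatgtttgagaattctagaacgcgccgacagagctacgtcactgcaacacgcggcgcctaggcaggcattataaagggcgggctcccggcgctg
Ankrd1: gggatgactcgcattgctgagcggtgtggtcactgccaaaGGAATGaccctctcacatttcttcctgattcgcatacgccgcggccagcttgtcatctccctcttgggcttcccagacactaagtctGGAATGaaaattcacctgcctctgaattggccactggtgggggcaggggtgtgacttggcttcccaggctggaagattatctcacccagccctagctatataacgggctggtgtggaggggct
Amotl2: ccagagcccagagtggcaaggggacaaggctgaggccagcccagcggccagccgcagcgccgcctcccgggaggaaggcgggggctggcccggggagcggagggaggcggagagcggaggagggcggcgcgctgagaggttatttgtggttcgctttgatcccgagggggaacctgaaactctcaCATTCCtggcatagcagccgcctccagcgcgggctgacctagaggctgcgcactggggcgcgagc
Axl: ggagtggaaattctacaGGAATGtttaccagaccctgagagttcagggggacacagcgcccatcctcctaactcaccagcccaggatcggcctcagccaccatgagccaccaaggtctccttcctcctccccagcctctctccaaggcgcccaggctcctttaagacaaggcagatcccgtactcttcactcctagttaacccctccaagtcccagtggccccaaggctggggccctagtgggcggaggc

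Cyr61 had the highest FPKM of the 10 genes in the duct sorts. Its 4 normal BEC libraries held 2165, 3247, 1416 and 1507 FPKM and the 4 of cBEC 1110.2, 1325, 1277 and 1045. NPD had 889.8 and 1003 and Thy1 994 and 830.2, whereas HSC had 107 and 199.7, and LSEC 78.3, 27.3 and 83.8. BEC thus lay above cBEC in every library, and both above all other sorts. Within HC the libraries were at 5.56, 28.3, 28.5 and 10.1 FPKM.

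Ankrd1 was more restricted. It was 473, 721, 346 and 391 FPKM in BEC, 221, 405, 297 and 335 in cBEC, and 76.1 and 32.9 in NPD. Thy1 held 9.72 and 70.3 FPKM. All normal libraries of HC, EC, LSEC, HSC, KC and blood were at or below 5.41 FPKM. BEC exceeded LSEC by 7.74 on the log2 scale (SE 0.60, limma adjusted p 5.1e-10), and cBEC exceeded NPD by 2.59 (SE 0.68, limma adjusted p 0.00521). The second of these calls was lost with a pseudocount of 0.1 (limma adjusted p 0.102) and without the second, lower NPD library (limma adjusted p 0.101).

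Ctgf spread further into the mesenchyme. Its normal levels were 289, 412, 164 and 184 FPKM in BEC, 182, 277, 197 and 319 in cBEC, 275 and 186 in Thy1 and 222 and 142 in HSC. These 4 sorts overlapped. Levels were lower in NPD (96.3 and 113), EC, LSEC and KC, and HC held 0.06 to 1.59 FPKM. The HSC level exceeded that of LSEC by 1.84 (SE 0.56, limma adjusted p 0.0151), but not with those 2 groups fitted alone (adjusted p 0.124), with a pseudocount of 0.1 (0.0771) or without HSC library 1 (0.14) or LSEC library 2 (0.0954).

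Amotl2 encodes an angiomotin-family protein that holds YAP at junctions and is itself induced by YAP. It was highest in NPD, at 231 and 314 FPKM, above every library of the other sorts. Thy1 had 155 and 137, BEC 123 to 159, LSEC 125, 118 and 75.8, and HSC 49 and 58.9. KC had 33.5 and 42.6, HC 5.77 to 9.53 and blood 4.71 and 6. Amotl2 was higher in NPD than in cBEC by 1.25 (SE 0.22, limma adjusted p 0.000128).

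Axl, a receptor tyrosine kinase that binds GAS6 and takes part in the uptake of dying cells, was highest in KC. Its normal level was 425 and 379 FPKM in KC, 95.5 and 119.6 in Thy1, 50.7 and 73.8 in HSC and 27.5 to 40.3 in NPD and blood. It was 4.16 and 5.94 in EC, 2.7 to 9.33 in BEC and 0 to 0.49 in HC. KC exceeded LSEC by 5.52 on the log2 scale (SE 0.50, limma adjusted p 2.19e-08). Over the 20 group means of log2(FPKM + 1), the correlation of Axl with the other genes ran from -0.35 (Yap1) to 0.35 (Lats2), with values near 0 for Wwtr1 (-0.026), Ctgf (-0.058) and Tead1 (-0.07). Cyr61 and Ajuba had r = 0.95. These are descriptions over 20 means from the same table, which share the sorts and the normalization.

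Pairs of populations were compared in a single fit of the 10 normal groups. Every one of the 10 genes differed among populations in its F test, as did 93.3% of all genes tested. BEC exceeded HC for 10 of 10, where 76.6% of all genes were called and 64.6% were higher, and the median difference was 3.75 against 1.12 over all genes. Of 12 immediate early genes, which respond fast to handling and growth signals, 12 were higher in BEC than in HC (median 4.26). Their part was not tested. HSC exceeded HC for 8 of 10 (60.7% of all genes called, 43% higher, medians 2.90 and 0.43). The exceptions were Ankrd1 (-0.47, adjusted p 0.615) and Yap1 (0.53, adjusted p 0.096). LSEC exceeded HC for 8 of 10 (66.1% of all genes called, 48.5% higher and 17.6% lower, medians 2.53 and 0.60), leaving out Ankrd1 and Ajuba. Hepatocytes thus had the lower level in most such comparisons, as they had for the majority of called genes. Because HC values were listed with fewer decimals, a difference in processing cannot be told apart from cell type here. The LSEC difference of Yap1 was 1.17 (SE 0.24, limma adjusted p 0.000166) and was 0.44 after quantile normalization (adjusted p 0.117), which also took the median of all genes from 0.60 to 0.08.

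Pairs of non-hepatocyte sorts gave calls in both directions. HSC against LSEC gave 6 calls (30.6% of all genes, 12.3% higher and 18.3% lower), with Ctgf, Ajuba, Tead1 and Axl higher and Amotl2 and Wwtr1 lower. The Wwtr1 difference was -2.55 (SE 0.37, limma adjusted p 1.14e-05). Without HSC library 1 only Tead1, Wwtr1 and Axl were called, as with those 2 groups fitted alone. BEC against LSEC gave 7 calls (48.5%, with 32.8% higher and 15.7% lower), with Ctgf, Cyr61, Ankrd1, Ajuba and Tead1 higher in BEC and Lats2 and Wwtr1 lower. All 12 immediate early genes were also higher in BEC than in LSEC (median 2.29), and their part was not tested. KC against LSEC gave 6 calls (19.5%, with 10.4% higher and 9.1% lower), with Axl higher and Amotl2, Lats2, Tead1, Yap1 and Wwtr1 lower in KC. The Wwtr1 call among them was lost without KC library 1 (limma adjusted p 0.309) and without LSEC library 1 or 2 (0.0795 and 0.075). The Lats2 call was lost without KC library 1 (0.119) or 2 (0.0683) or LSEC library 1 (0.0622), and the Tead1 call without KC library 2 (0.109). The normal KC sort also held endothelial RNA, with values given beside its PH result. Between KC and LSEC 0 of 5 sinusoidal (median -1.09) and 0 of 5 endothelial genes (median -1.61) were called, and their part was not tested. HSC against Thy1 gave 4 calls (32.8%, with 26.5% lower), all lower in HSC: Cyr61 (-2.63), Ankrd1 (-4.46), Amotl2 (-1.42) and Wwtr1 (-2.30). With those 2 groups fitted alone Cyr61 was the one gene called. The Thy1 sort held mesothelial and biliary RNA (biliary list 860.3 to 5109 FPKM, against 0.292 to 31.5 in HSC), whose part in this was not tested. All 12 immediate early genes were lower in HSC than in Thy1 (median -3.80), and their part was not tested either. Finally, cBEC against NPD gave 4 calls (31.9%, with 19.7% higher and 12.2% lower), with Ankrd1 higher and Amotl2, Lats2 and Axl lower in cBEC. The mesothelial list was 71.5 to 412 FPKM in cBEC, below the NPD range, and its part in the result was not tested.

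The remaining pathway genes were read from 4 lists: 12 genes of the Hippo kinase module, 12 upstream and scaffold genes, 7 TEAD and VGLL genes and 20 further YAP/TAZ targets. BEC exceeded HC for 12 of 12 kinase genes tested, 12 of 12 upstream genes, 4 of 5 TEAD and VGLL genes and 16 of 19 targets, where 64.6% of all genes were higher. Against LSEC the BEC sort had Wwc1, which encodes the junctional scaffold KIBRA, higher by 7.08 (limma adjusted p 1.33e-14) and the TEAD family gene Tead3 by 3.98 (limma adjusted p 7.68e-12). The atypical cadherin genes Dchs1 (-4.59) and Fat4 (-2.84) were lower in BEC than in LSEC. HSC had the secreted target Igfbp3 higher than LSEC by 8.56 (limma adjusted p 4.74e-08).

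After PH, none of the 10 genes passed in cBEC, where 0.0681% of all genes were called (0.0454% higher, 0.0227% lower), and 6 had an unadjusted p under 0.05 in limma. Ctgf held 182, 277, 197 and 319 FPKM in normal cBEC and 802 and 879 after PH. Ankrd1 held 221, 405, 297 and 335 before and 1237 and 866 after, and Cyr61 1110.2, 1325, 1277 and 1045 before and 2896 and 3049 after. For each of the 3 the PH libraries lay above every normal library. How many of all genes separated in this way was not counted, here or in the other sorts. Groups this small can separate without a change. The differences were 1.82 for Ctgf (SE 0.26, limma adjusted p 0.101), 1.75 for Ankrd1 (SE 0.28, 0.129) and 1.33 for Cyr61 (SE 0.21, 0.129). Amotl2 (0.62), Ajuba (0.90) and Lats2 (0.52) also lay above in both PH libraries and were not called (limma adjusted p 0.333 to 0.405). Yap1 was 34.1 to 44.6 FPKM before and 42.8 and 50.3 after, a difference of 0.27 (SE 0.17, limma adjusted p 0.616). Without the first normal library Ctgf, Cyr61 and Ankrd1 were called, and without the PH library tagged as normal none was. The immediate early list, genes that respond fast to handling and growth signals, overlapped (8104 to 14417 FPKM before, 9707 to 16919 after). The Kupffer list was 0.412 to 74.5 before and 0 after, with all 5 genes at 0, and the mesothelial list was 71.5 to 412 before and 12.4 to 39.7 after, with 0 genes of either called. Their part in these differences was not tested.

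In BEC 1 of the 10 genes was called, Axl. Ctgf held 289, 412, 164 and 184 FPKM before and 658 and 749.7 after PH, and Ankrd1 473, 721, 346 and 391 before and 1524 and 1032 after. Both lay above in the 2 PH libraries, with differences of 1.52 (SE 0.36, limma adjusted p 0.08) and 1.43 (SE 0.32, limma adjusted p 0.0686), and were not called. Without the second normal library both were. Ajuba was 54.3 to 68.8 FPKM before and 92 and 98.8 after, a difference of 0.66 (SE 0.17, limma adjusted p 0.097). Cyr61 (1416 to 3247 before, 3410.0 and 3369 after), Amotl2 (123 to 159, then 174 and 173) and Lats2 (19.7 to 27.5, then 32.6 and 35) also lay above in both PH libraries and were not called. Axl was the only call (1.81% of all genes were called, 1.57% lower), at 4.76, 6.04, 9.33 and 2.7 FPKM before and 0.108 and 0.641 after. It fell by 2.22 on the log2 scale (SE 0.40, limma adjusted p 0.0358). Both PH libraries were under 1 FPKM, so Axl entered the test only through the normal group. The call was lost without either PH library, without normal library 1 or 2, and with quantile normalization or no filter (limma adjusted p 0.0509 to 0.275). The Kupffer list, from the sort where Axl was highest, was 71.2 to 283 FPKM before and 0.377 to 3.15 after, with 5 of 5 genes lower, and 4 of 5 sinusoidal genes were lower too. Their part in the result was not tested. In bulk RNA, fewer cells of a type and less RNA per cell cannot be told apart.

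**Figure D3:**
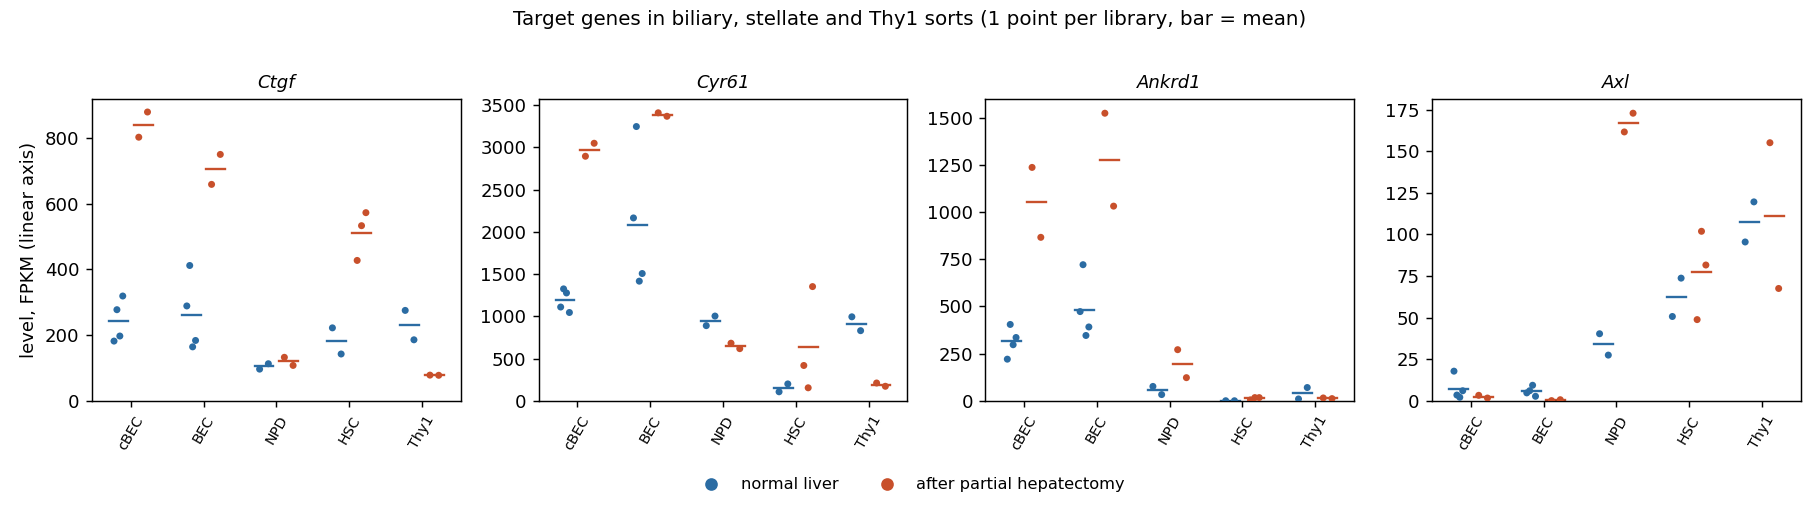
Levels of Ctgf, Cyr61, Ankrd1 and Axl in FPKM (linear vertical axes that differ between panels) in 5 sorts, 1 point per library with bars at means, blue for normal liver and red after PH. Ctgf lies higher after PH in cBEC, BEC and HSC and lower in Thy1, but none of these Ctgf differences was called. Axl rises in NPD from 27.5 and 40.3 to 162 and 173 FPKM, which was called.

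In NPD 2 of the 10 genes were called, against 15.2% of all genes (9.65% higher, 5.51% lower). Axl rose from 40.3 and 27.5 FPKM to 162 and 173, a change of 2.29 (SE 0.23, limma adjusted p 0.00984). Wwtr1 fell from 47.4 and 44.9 to 29.6 and 28.7, by 0.65 on the log2 scale (SE 0.15, limma adjusted p 0.0455). The libraries did not overlap for either gene. Amotl2 was at 231 and 314 FPKM before and 125 and 153 after, and Lats2 at 70.7 and 108 before and 40.4 and 45.2 after. Their differences of -0.96 and -1.02 missed the threshold (limma adjusted p 0.0542 and 0.0519). Ankrd1 went from 76.1 and 32.9 to 271 and 123 FPKM, a difference of 1.84 (SE 0.53, limma adjusted p 0.0772), while Cyr61 was 889.8 and 1003 before and 682 and 617 after, below both normal libraries (-0.54, SE 0.21, limma adjusted p 0.136). Yap1 (40.5 and 45.7 before, 42.6 and 40.8 after) and Tead1 overlapped.

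Each NPD call rests on few libraries. Without either PH library neither gene was called (limma adjusted p 0.197 and 0.273 for Axl, 0.416 and 0.427 for Wwtr1). The Wwtr1 call was also lost with no filter (0.0752) and in the single fit of 20 groups (0.326). A single normal library mattered too: without the first, 6 genes were called, adding Cyr61, Ankrd1, Amotl2 and Lats2. The mesothelial list was 4806 to 5144 FPKM before and 3655 to 4182 after with 0 of 5 genes called, the Kupffer list fell in 5 of 5 genes (101 to 239.7, then 5.57 to 9.03), and 4 of 5 cycling genes rose. Their part in the result was not tested. Of the further targets 4 rose and 1 fell among 19 tested. Birc5, which encodes the mitotic protein survivin, rose by 2.90 (limma adjusted p 0.024), and Map4k4 and Tead2 rose by 1.37 and 1.35 (limma adjusted p 0.0168 and 0.0256).

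In HSC no gene of the 10 was called, and 0.00853% of all genes were. Ctgf held 222 and 142 FPKM in normal HSC and 427, 533 and 572 after PH. Ankrd1 held 0.296 and 0.222 before and 4.63, 16.9 and 16.8 after. Both lay above in all 3 PH libraries, with differences of 1.51 (SE 0.30, limma adjusted p 0.304) and 3.27 (SE 0.72, limma adjusted p 0.379), and these 2 were the genes with an unadjusted p under 0.05. Ankrd1 was under 1 FPKM in both normal libraries and so entered the test only through the PH group. Cyr61 was widely spread after PH, at 418, 154 and 1352 FPKM against 107 and 199.7. In HSC the sinusoidal list was 155 to 921 FPKM before and 13.8 to 65.6 after, the endothelial list 61.7 to 282 and then 2.71 to 16.2, and the Kupffer list 70.2 to 796 and then 0.515 to 40.4, each with 0 of 5 genes called. The immediate early list was 594 to 1084 before and 1046 to 2439.9 after, with 0 of 12 called. Their part in these differences was not tested.

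Thy1 cells stood the other way, again with 0 of 10 called (0.00747% of all genes). Cyr61 held 994 and 830.2 FPKM before and 211 and 172 after, and Ctgf 275 and 186 before and 78.1 and 77.6 after. Both lay below every normal library, with differences of -2.25 (SE 0.34, limma adjusted p 0.13) and -1.53 (SE 0.33, limma adjusted p 0.16). Amotl2 (155 and 137, then 95.4 and 83.9) and Ajuba (23.6 and 23.5, then 15.6 and 16.6) did not overlap either. The immediate early list was 7678 to 9404 FPKM before and 3202 to 3567 after, with 0 of 12 genes called. The Thy1 transcript itself averaged 231 before and 44.0 after, and the endothelial list was 758 to 769 before and 1101 to 2117 after. The mesothelial list was 1561 to 2336 before and 951 to 1502 after, the portal fibroblast list 1770.5 to 2219.5 and then 433 to 1181, and the Kupffer list 49.1 to 99.7 and then 8.28 to 13.2. The groups did not overlap in any of these lists, and 0 genes of them were called. Their part was not tested.

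In LSEC 1 of 10 genes was called (8.46% of all genes, 4.15% higher and 4.31% lower): Amotl2 was 125, 118 and 75.8 FPKM before and 52.4, 54.2, 59.6, 39.7 and 78.4 after, a change of -0.89 (SE 0.24, limma adjusted p 0.0461). One PH library lay above the lowest normal library, so the groups overlapped, and the call was lost without normal library 1 or 2 or PH library 1, 2 or 4 (limma adjusted p 0.0545 to 0.174) and with no filter (0.0916). Ctgf held 92.6, 16.8 and 73.2 FPKM before and 9.16, 46.2, 9.69, 14.4 and 26.2 after, which overlapped (limma adjusted p 0.211). Yap1 differed by 0.06 (SE 0.15) and Lats2 by 0.01 (SE 0.17) in limma. Sinusoidal markers were lower in 2 of 5 genes, from 4461 to 8956 FPKM before to 1313 to 4969 after, and their part was not tested. Among further genes, Tgfb2 (transforming growth factor beta 2) rose by 2.70 (limma adjusted p 0.0178), Tead4 by 0.82 (0.0134) and Stk3, which encodes MST2, by 0.60 (0.0382), and Birc5 fell by 2.50 (0.00185).

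In EC 0 of 10 genes were called with 0.0249% of all genes, and 2 had an unadjusted p under 0.05 in limma. Axl was at 4.16 and 5.94 FPKM before and 24.5, 14.4 and 16.1 after, a difference of 1.66 (SE 0.28, limma adjusted p 0.181). Tead1 was at 6.2 and 9.22 before and 15.9, 12 and 11.2 after, a difference of 0.70 (SE 0.26, limma adjusted p 0.41). In both cases every PH library lay above the normal ones. The biliary list, from sorts where Tead1 was high, was 44.8 to 56.7 FPKM before and 167 to 322 after without overlap. The mesothelial list was 10.6 to 148 and then 139.8 to 549, and the Kupffer list 10.7 to 22.9 and then 7 to 161, both with overlap. No gene of these lists was called, and their part was not tested. In hepatocytes, 9 genes were tested, because Axl did not reach 1 FPKM in enough libraries, and 0 were called (6.19% of all genes, 1.78% higher and 4.41% lower). Yap1 was 13.5, 18.9, 18.5 and 12.9 FPKM before and 12.4, 17.7, 13.6 and 14.6 after (difference -0.11, SE 0.21, limma adjusted p 0.807). The groups overlapped for each of the 9 genes. Amotl2, with 5.77 to 9.53 before and 2.39 to 7.96 after, was the one with an unadjusted p under 0.05 (difference -0.76, SE 0.30, limma adjusted p 0.171).

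Kupffer cells gave the broadest difference. Of the 10 genes 7 fell, where 36.8% of all genes were called (20.1% lower, 16.7% higher), and the median difference was -1.75 against -0.04 over all genes. Yap1 was 10.7 and 14.1 FPKM before and 1.06, 0.8 and 1.69 after, a change of -2.63 (SE 0.25, limma adjusted p 0.00195). Wwtr1 was 24.2 and 36.6 before and 2.12, 1.85 and 3.14 after (-3.21, SE 0.26, limma adjusted p 0.00155). Amotl2 was 33.5 and 42.6 before and 1.66, 0.775 and 3.31 after (-3.83, SE 0.39, limma adjusted p 0.00226). In none of the 7 genes did the groups overlap, but how many of all genes separated in this way was not counted. Ctgf (24.5 and 15.6, then 1.94, 0.805 and 3.15) changed by -2.88, Cyr61 by -2.05, Tead1 by -1.45 and Lats2 by -1.21. Tead1 was under 1 FPKM in every PH library (0.548, 0.353 and 0.545) and so entered the test only through the normal group. With no filter its limma adjusted p was 0.0145. Axl held 425 and 379 FPKM before and 483, 495 and 544 after, a difference of 0.34 (SE 0.12, limma adjusted p 0.0709). Ajuba and Ankrd1 were low and overlapped.

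Endothelial markers moved with these genes in KC. The sinusoidal list was 3014 to 4186 FPKM before and 261 to 460.2 after, with 5 of 5 genes lower, and the endothelial list 1037 to 1292 before and 279.8 to 499 after, with 3 of 5 lower. Kdr, a VEGF receptor gene, averaged 420.5 FPKM before and 13.4 after, Tek 97.8 and 9.28 and Pecam1 210 and 57.1, and these 3 fell. Cdh5, the endothelial cadherin, averaged 434 before and 286 after, and Vwf 2.88 and 1.26, and neither was called. The Kupffer list was 13596 to 15142 before and 23253 to 24732 after, with 2 of 5 genes higher. All 12 immediate early genes fell, with a sum of 4316 to 5041 before and 509 to 837 after. The part of endothelial RNA in the result was not tested. Of the further pathway genes, 7 of 10 upstream genes fell and 0 rose, with Amotl1 (-3.08), Fat4 (-2.92) and Dchs1 (-2.81) the largest, and these 3 were also lower in KC than in LSEC in normal liver. In the kinase module 3 of 12 fell, and 3 of 3 TEAD and VGLL genes fell. Among targets 8 of 16 fell and 1 rose, with Thbs1 (thrombospondin 1, a matricellular protein) at -3.80 (limma adjusted p 0.0309). Without the first normal KC library, which left 1 in that group, the calls of Ctgf, Tead1 and Lats2 were lost. Without the third PH library 8 of the 10 genes were called, Axl being the eighth, where 58.4% of all genes were called. The Lats2 call was lost in 4 of the 5 fits without 1 library, the exception being the third PH library (limma adjusted p 0.0531 to 0.137).

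**Figure D4:**
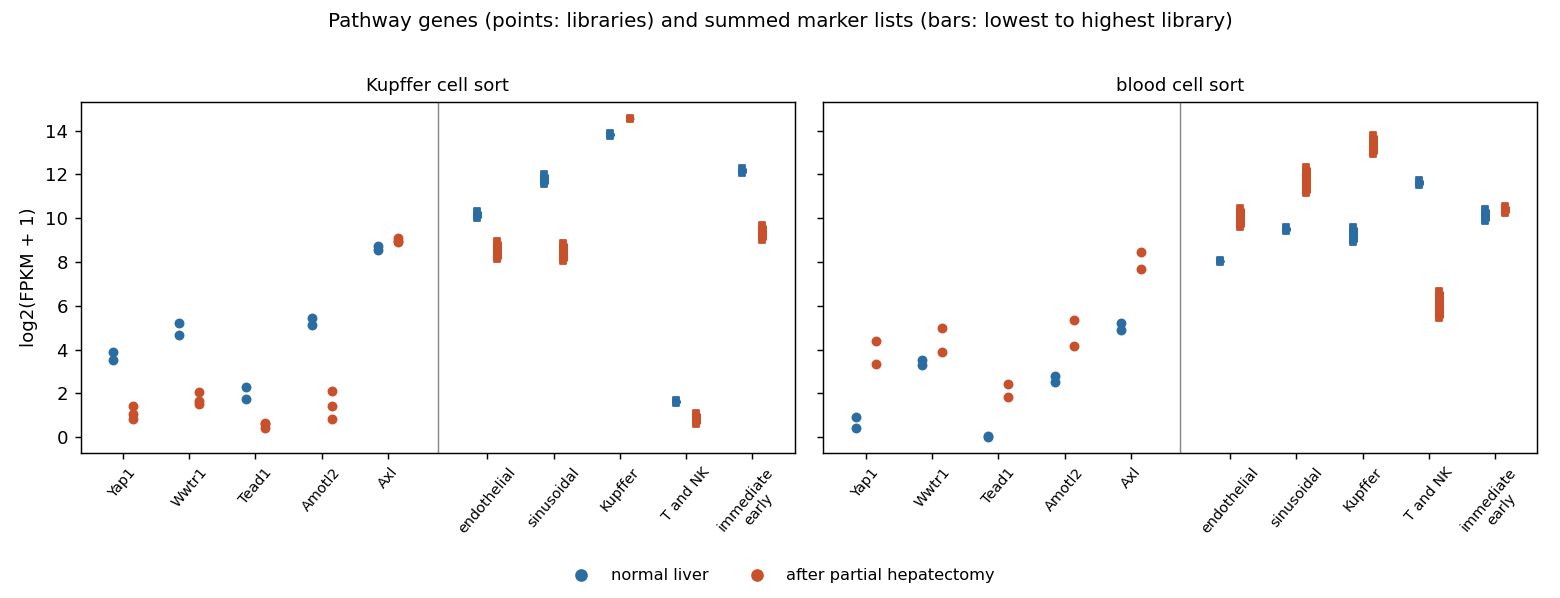
Log2(FPKM + 1) of 5 pathway genes (points, 1 per library) and of 5 summed marker lists (bars from the lowest to the highest library) in the KC sort and the blood sort, blue for normal liver and red after PH. In KC the coactivators and both endothelial lists lie lower after PH, and in blood Yap1, Axl and the Kupffer and endothelial lists lie higher while the T and NK list lies lower.

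In blood 4 of the 9 genes tested rose, where 64% of all genes were called, 24.3% rose and the median of all genes was -0.31. Ankrd1 did not reach the level needed for a test. Yap1 was 0.347 and 0.875 FPKM before and 19.9 and 9.06 after, a change of 3.19 (SE 0.42, limma adjusted p 0.00348). Axl went from 28.4 and 36.6 to 205 and 352 FPKM (3.02, SE 0.31, limma adjusted p 0.00196). Tead1 went from 0.0488 and 0.0225 to 4.44 and 2.61 (2.10, SE 0.25, limma adjusted p 0.00279), and Amotl2 from 4.71 and 6 to 40.2 and 16.8 (2.10, SE 0.43, limma adjusted p 0.0121). No PH library overlapped a normal one in these 4 genes, but how many of all genes separated in this way was not counted. Yap1 and Tead1 were under 1 FPKM in both normal libraries and so entered the test only through the PH group. With no filter their adjusted p in limma was 0.0103 and 0.00814. Ctgf and Lats2 overlapped, and Wwtr1 (8.78 and 10.6, then 30.4 and 13.8) had a difference of 1.01 (limma adjusted p 0.0757).

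Marker lists changed in the blood sort as well. The T and NK list was 2968 to 3375 FPKM before and 42.7 to 100.1 after (5 of 5 lower), and the B cell list was lower in 5 of 5. The Kupffer list was 475 to 763 before and 7910.1 to 14010.0 after, the sinusoidal list 672 to 774 and then 2255 to 5159.7, and the endothelial list 252 to 268 and then 781 to 1433, each with 5 of 5 genes higher. The part of these cells in the rise of Yap1, Axl, Tead1 and Amotl2 was not tested. Without the first normal library 0 of the 10 genes were called and without the second 1, Cyr61 (the 4 genes above had limma adjusted p 0.0507 to 0.128). Without the second PH library, which left 1 in that group, more of the 10 genes were called, and so was a slightly larger share of all genes. The adaptor Sav1 and the LIM protein gene Wtip rose by 4.14 and 4.26, and the kinase gene Stk4 (MST1), abundant in lymphocytes, fell by 2.60 (limma adjusted p 0.000972, 0.000818 and 0.00132).

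**Figure D5:**
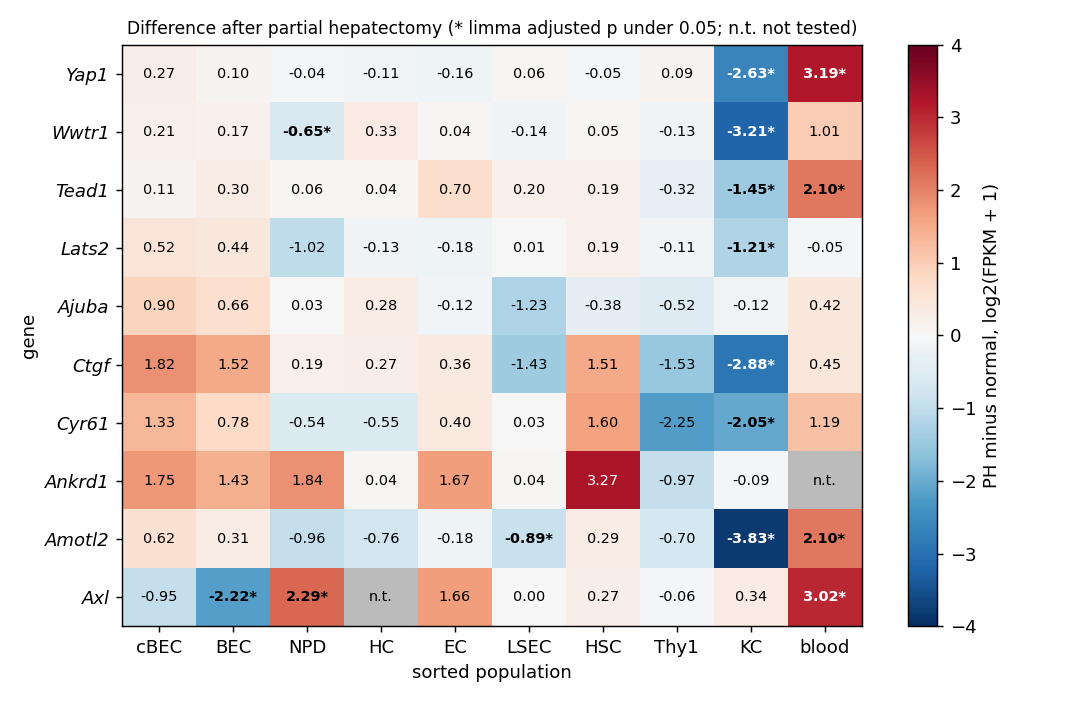
Difference between PH and normal liver in log2(FPKM + 1) for each of the 10 genes (rows) in the 10 populations (columns), red for higher and blue for lower after PH. An asterisk marks a limma adjusted p under 0.05 and n.t. a gene not tested; KC carries 7 of the marked falls and blood 4 of the marked rises.

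The difference between populations in their response to PH was tested directly over all 20 groups. In the F test of the interaction 9 of 10 genes passed (47.8% of all genes), led by Yap1 (limma adjusted p 1.39e-11) and Amotl2 (5.51e-10), and Ajuba did not (0.0711). The Ankrd1 call (0.0109) was lost with a pseudocount of 0.1 (0.111) and after quantile normalization (0.0701). The HSC response exceeded the LSEC response for 2 genes (6.26% of all genes): Ctgf by 2.94 (SE 0.69, limma adjusted p 0.00611) and Ankrd1 by 3.23 (SE 0.88, limma adjusted p 0.0192). Both were lost with a pseudocount of 0.1 (adjusted p 0.0517 and 0.0962), and Ankrd1 was also lost without PH HSC library 2 (0.0591) or normal LSEC library 1 (0.0948). The NPD response differed from that of cBEC for 2 genes (3.79% of all genes): Lats2 by -1.54 (SE 0.36, limma adjusted p 0.00634) and Axl by 3.25 (SE 0.68, limma adjusted p 0.00211). The Axl call was lost with a pseudocount of 0.1 (adjusted p 0.0744), and the Lats2 call without normal NPD library 2 (0.0681) or PH cBEC library 2 (0.0525). The LSEC and EC responses differed for 0 of 10 genes (0.345% of all genes called), with 2 at an unadjusted p under 0.05 in limma.

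Genes with the most similar levels were sought over the 20 group means of log2(FPKM + 1). For Ankrd1 they were the tight junction genes Cldn4 (r = 0.98) and Cldn7 (r = 0.98) and Cbarp (r = 0.98). For Tead1 they included Rhbdf1 (r = 0.98) and Pkd2 (r = 0.97), and Rhbdf1 (r = 0.96) was also among those of Ctgf, after Igf1r (r = 0.97). For Wwtr1 they were Tm4sf1, the junction scaffold gene Tjp1 and the planar polarity gene Vangl1 (r = 0.96 to 0.97). Cyr61 came with Stxbp4, the myosin gene Myh10 and Ptpn21, and Amotl2 with Cdc42bpa, Lzts2 and Rab11fip3. For Axl the nearest were Pla2g4a (r = 0.95), Ifi211 and Metrnl (both r = 0.93). The means share libraries and sorts, so these values are descriptions.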

How the data were processed

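Cells of 10 liver populations were sorted into TRIzol and sequenced in 55 libraries, per the labels. The deposited values are FPKM, by the name the authors gave their table. The submitters' processing notes name CASAVA 1.8.2, Bowtie 1.0.0 and mm9, and the counting tool is not given in the sources used here. Sums of FPKM per library were 624726 to 1203197, and 0 other sample columns were present. The depth is unknown, so no counting interval is given. Table starts count from 0 and are printed from 1 (98.9% of 982 microRNA hairpins matched in length).

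The tests were run on log2(FPKM + 1) by limma 3.58.1 (R 4.3.3), with trended, robust moderated variances and Benjamini-Hochberg adjustment over all genes tested, two-sided, called under 0.05. Such differences understate changes of low genes. A gene needed 1 FPKM in as many libraries as the smallest group. PH was compared with normal within each population, populations in a fit of the 10 normal groups, responses in a fit of all 20. On simulated data, 153 of 200 genes changed by 2 were recovered in the KC design (11649 genes), 167 in cBEC (13373 genes), 174 in HC (10096 genes) and 0 in HSC (11906 genes), so the absence of calls in HSC says little. The named genes are the 10 pathway genes, up to 3 called genes of each pathway list and the 3 most similar genes, some of which are not reported here. The 10 genes, the lists and the rule were chosen with earlier results of these data known. Alternatives were no filter, a pseudocount of 0.1, quantile normalization, the mean over a symbol's rows, another set of fitted groups, a replicate block, and leaving out each library. Figures used Python 3.11.15 and matplotlib 3.10.9.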

Additional observations from a re-analysis of the deposited data

Results flagged for a closer look

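In hepatocytes Axl, which is close to absent there, was 0.49 FPKM in the fourth normal library against 0 to 0.08 in the other 3, and 2.02 FPKM in the second PH library against 0.07 to 0.29 in the other 3. Each gap was large for its group of 4. In 50 groups checked this way 2 gaps were this large, and chance gives about 2.5.

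The response to PH differed among populations in the limma F test, with these adjusted p-values: Ctgf 5.28e-06, Cyr61 0.00187, Ankrd1 0.0109, Amotl2 5.51e-10, Lats2 0.000641, Tead1 1.18e-06, Yap1 1.39e-11, Wwtr1 5.99e-07 and Axl 8.13e-07. The KC and blood sorts gave 11 of the 15 single-population calls. They also had the largest shares of all genes called after PH, at 36.8% and 64%. Marker lists moved in these sorts and in several others. Between pairs of populations the response of HSC exceeded that of LSEC by 2.94 for Ctgf and 3.23 for Ankrd1 on the log2 scale. The response of NPD differed from that of cBEC by -1.54 for Lats2 and by 3.25 for Axl.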

How the results depend on the processing

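None of the called differences changed sign under any alternative. Over the 81 called results, a mean over each symbol's rows kept 81 of 81 calls, no filter 78, quantile normalization 77, a replicate block 77 and a pseudocount of 0.1 75. Fits of only 2 groups kept 47 of 53, the single fit of 20 groups 14 of 15 and fits without 1 library 406 of 452.

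The number of the 10 genes called after PH changed as follows. With the single fit of 20 groups it was 1 in cBEC (Ctgf, with 3.12% of all genes called), 1 in HSC (Ankrd1, 11.9%), 1 in Thy1 (Cyr61, 11.4%) and 3 in LSEC (7.38%). In the main fits these shares of all genes were 0.0681%, 0.00853%, 0.00747% and 8.46%. With no filter the number was 0 in BEC (0.299% of all genes), 1 in NPD (3.61%) and 0 in LSEC (3.87%), and with quantile normalization 2 in BEC (0.949%). The HSC and LSEC levels gave 3 calls (21.2% of all genes) and HSC and Thy1 gave 1 (9.55%) when fitted alone. For the responses of HSC and LSEC a pseudocount of 0.1 left 0 (5.58%) and quantile normalization 1 (6.55%). For those of NPD and cBEC a pseudocount of 0.1 left 1 (2.31%). The cause of these moves was not tested.

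Leaving out 1 library gave 0 to 3 calls in cBEC, 0 to 2 in BEC, 0 to 6 in NPD, 0 to 1 in LSEC, 4 to 8 in KC and 0 to 6 in blood, and 0 in HC, EC, HSC and Thy1. It gave 3 to 7 for HSC against LSEC, 4 to 7 for KC against LSEC, 1 to 2 for the responses of HSC and LSEC and 1 to 2 for those of NPD and cBEC. A lone library left in a group was assumed to vary like the others.

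Replicate numbers showed no clear pairing of the samples, but these values cannot exclude it. The correlations of same-numbered deviations were -0.672 to 0.574 in HC and -0.239 to -0.0183 in LSEC. In the sorts with 2 shared numbers they were -0.158 to 0.132, all above 0 in cBEC, BEC, NPD, HSC and Thy1. Where both treatments had 2 libraries (NPD, Thy1 and blood), the 2 correlations are equal by construction. With a replicate block the count was 3 in BEC (7.99% of all genes called), 4 in NPD (19.5%), 0 in LSEC (0.0261%) and 1 in Thy1 (3.62%). The calls lost with the block were Wwtr1 in NPD (limma adjusted p 0.0595), Amotl2 in LSEC (0.231), and Wwtr1 in BEC against LSEC (0.0546) and in KC against LSEC (0.0565).

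Quantile normalization moved the median PH difference of all genes by over 0.1 in cBEC (-0.11 to 0.05), BEC (-0.12 to 0.02), Thy1 (-0.06 to 0.04), KC (-0.04 to 0.09) and blood (-0.31 to -0.15). Between populations it moved BEC against HC from 1.12 to 0.16, LSEC against HC from 0.60 to 0.08 and cBEC against NPD from 0.18 to 0.04, and HSC against HC (0.43), HSC against Thy1 (-0.34) and BEC against LSEC (0.25) to about 0. The response of NPD against cBEC moved from 0.17 to -0.02. FPKM give no depth, and groups of 2 libraries limit every PH comparison but those of HC and LSEC.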
